A study of Mus musculus with 18 samples.

Results

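The insulin-like growth factor (IGF) axis was followed here through 7 genes in mouse double negative T (DNT) cells: the receptor Igf1r, the ligand Igf2, the scavenger receptor Igf2r, the insulin receptor Insr, the adaptors Irs1 and Irs2, and the binding protein Igfbp4. These 7 of the 52506 genes listed in all 3 deposited count tables were chosen by measured values of the same ligand contrasts, namely a strong rise of Igf1r and a fall of Igf2. The members' own ligand effects are therefore given as a description, with a log2 fold change and its standard error (SE) and no test. All cells were wild-type DNT cells converted from CD4+ T cells of spleen and lymph node, and all 18 libraries, controls included, came from cells given anti-CD3/CD28 antibody.

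Each of 3 tables held 6 libraries, 3 untreated with the ligand and 3 treated for 6 hours. In the first table, WT cells had no further agent and WTATPgs cells received 400 µM ATPgs, an ATP analogue that resists hydrolysis. In the second, DNT cells had no further agent and ADO cells received 400 µM adenosine. In the third, R cells received 250 nM A2aR inhibitor, which blocks the A2a receptor for adenosine, and RA cells received it together with 400 µM adenosine. The question was how purinergic signals change these cells. Whether libraries of a group stem from different mice or cultures is not stated, so their spread may be technical. The WT and DNT groups carry the same description but were deposited in separate tables.

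IGF1, IGF2 and insulin act through the tyrosine kinase receptors IGF1R and INSR. The activated receptors phosphorylate the adaptors IRS1 and IRS2, which recruit PI3 kinase and thereby activate AKT. AKT in turn keeps FOXO transcription factors out of the nucleus, and Irs2 and Insr are among the genes that FOXO factors can induce. IGF2R carries no kinase and takes IGF2 to the lysosome, while IGFBP4 holds IGFs in the extracellular space. In T cells this route is known for its links to growth, metabolism and survival.

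Promoter sequence is shown for Igf1r and Irs2, which were both higher with either ligand, and for Igf2r, which was not. The windows are the 250 bases before the RefSeq gene start (GRCm38.p6), 5′ to 3′ on the gene's strand. Adenosine can act through cyclic AMP, so the cyclic AMP response element (CRE), with the letters TGACGTCA, was searched on both strands. Its core TGACG, which every CRE also holds, was searched in the same way, as was the FOXO site GTAAACA. The GC box, on either strand, was added after the windows had been seen. Capitals mark CRE cores and GC boxes.
Igf1r, plus strand, chr7:67952007-67952256: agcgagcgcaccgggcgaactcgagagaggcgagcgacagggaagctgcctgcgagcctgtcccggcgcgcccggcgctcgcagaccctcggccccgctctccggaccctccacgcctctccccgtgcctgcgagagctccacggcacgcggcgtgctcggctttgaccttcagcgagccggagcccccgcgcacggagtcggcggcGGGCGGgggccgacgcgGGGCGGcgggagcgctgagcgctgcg
Irs2, minus strand, chr8:11008930-11009179: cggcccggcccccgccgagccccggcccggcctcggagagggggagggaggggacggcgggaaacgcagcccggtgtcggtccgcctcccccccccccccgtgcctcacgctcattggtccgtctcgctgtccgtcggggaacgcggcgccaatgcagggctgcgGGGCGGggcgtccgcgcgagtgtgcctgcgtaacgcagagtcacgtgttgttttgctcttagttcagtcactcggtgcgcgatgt
Igf2r, minus strand, chr17:12769707-12769956: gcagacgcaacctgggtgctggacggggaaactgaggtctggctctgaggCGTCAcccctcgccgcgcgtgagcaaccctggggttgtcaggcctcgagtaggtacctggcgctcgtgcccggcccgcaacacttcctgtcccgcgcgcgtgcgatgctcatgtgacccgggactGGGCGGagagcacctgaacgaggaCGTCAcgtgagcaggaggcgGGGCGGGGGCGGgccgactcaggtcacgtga
The Igf1r window held no CRE, no CRE core and no FOXO site, with 2 GC boxes and a GC content of 77.6%. The Irs2 window likewise held none of these 3, with 1 GC box and a GC content of 72.8%. The Igf2r window held 2 CRE cores and 3 GC boxes. Among the windows not shown, that of Igfbp4, which did not rise either, held 0 CRE cores and 0 GC boxes. The Irs1 window held 1 CRE core and 2 GC boxes, and each Igf2 window held 0 or 1 CRE core. The presence of a CRE core thus did not separate members that rose from members that did not. Over all 32851 windows of this length, 1.55% held the CRE, 17.8% the CRE core, 3.17% the FOXO site and 32.7% the GC box (GGGCGG). These letters are a description of a short stretch, and absence from it says nothing of a factor's use of the gene. RefSeq windows were matched for 6 of the 7 members.

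Levels are given as CPM (a gene's count relative to the total count of its library), scaled within each table by the trimmed mean of M values (TMM). Total counts were between 20156082 and 24331577 per library, and the summed level of 12 T cell markers was between 3239 and 4732 CPM in every library, with none at 0. Cd4, Cd8a and Cd8b1 together were 21.9 to 24.9 CPM in WT, 6.38 to 11.9 in WTATPgs, 25.3 to 26.7 in DNT, 17.8 to 20.7 in ADO, 9.21 to 11.5 in R and 8.99 to 9.55 in RA. The third table differed from the others in RNA makeup: ribosomal protein genes took 10.4 to 15.8% of its counts, against 4.71 to 5.37% in the others, and mitochondrial genes 3.14 to 5.47% against 1.62 to 2.19%. Scaling all 18 libraries together multiplied the CPM of the first table by 0.855 to 0.870, of the second by 0.877 to 0.882 and of the third by 1.27 to 1.37. Levels set across tables are therefore approximate.

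Igf1r (chromosome 7, 67952827 to 68233668, plus strand, GRCm38) was higher with each ligand and also with adenosine under the inhibitor. Its level was 19.7, 18.8 and 21.7 CPM in the WT libraries and 66.5, 70.9 and 62.0 CPM in the WTATPgs libraries. In the second table it was 4.09, 3.20 and 3.48 CPM in DNT and 45, 43.1 and 44.5 CPM in ADO. In the third it was 0.702, 1.01 and 0.827 CPM in R and 4.40, 4.02 and 5.16 CPM in RA. Every treated library lay above every control library of its own table. The log2 fold change was 1.73 ± 0.07 (SE, n = 3 per group) with ATPgs, 3.62 ± 0.08 with adenosine and 2.40 ± 0.25 with adenosine under the inhibitor. As ratios of group means these are 3.31-fold, 12.3-fold and 5.34-fold. The adenosine rise was the fifth largest of 14512 genes fitted, the rise under the inhibitor was ranked 10 of 12873, and the ATPgs rise was ranked 207 of 15124.

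The control levels of Igf1r differed between the tables. Mean Igf1r was 20.1 ± 1.52 CPM (SD) in WT, 3.59 ± 0.456 CPM in DNT and 0.847 ± 0.157 CPM in R, whereas the treated means were 66.5 ± 4.48, 44.2 ± 0.982 and 4.53 ± 0.583 CPM. The order of the 6 groups was WTATPgs, ADO, WT, RA, DNT and R, and only RA and DNT overlapped as neighbours. With all libraries scaled together the order was the same, with means of 57.2, 38.9, 17.4, 6.02, 3.15 and 1.11 CPM. With that scaling RA (5.37 to 6.86 CPM) and DNT (2.80 to 3.58 CPM) did not overlap. The adenosine effect was smaller by 1.23 ± 0.24 on the log2 scale with the inhibitor than without it, and the ATPgs effect was smaller than the adenosine effect by 1.89 ± 0.11, both given as descriptions. In both comparisons the 2 tables differ as well as the agents, so that table and agent cannot be told apart.

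**Figure D1:**
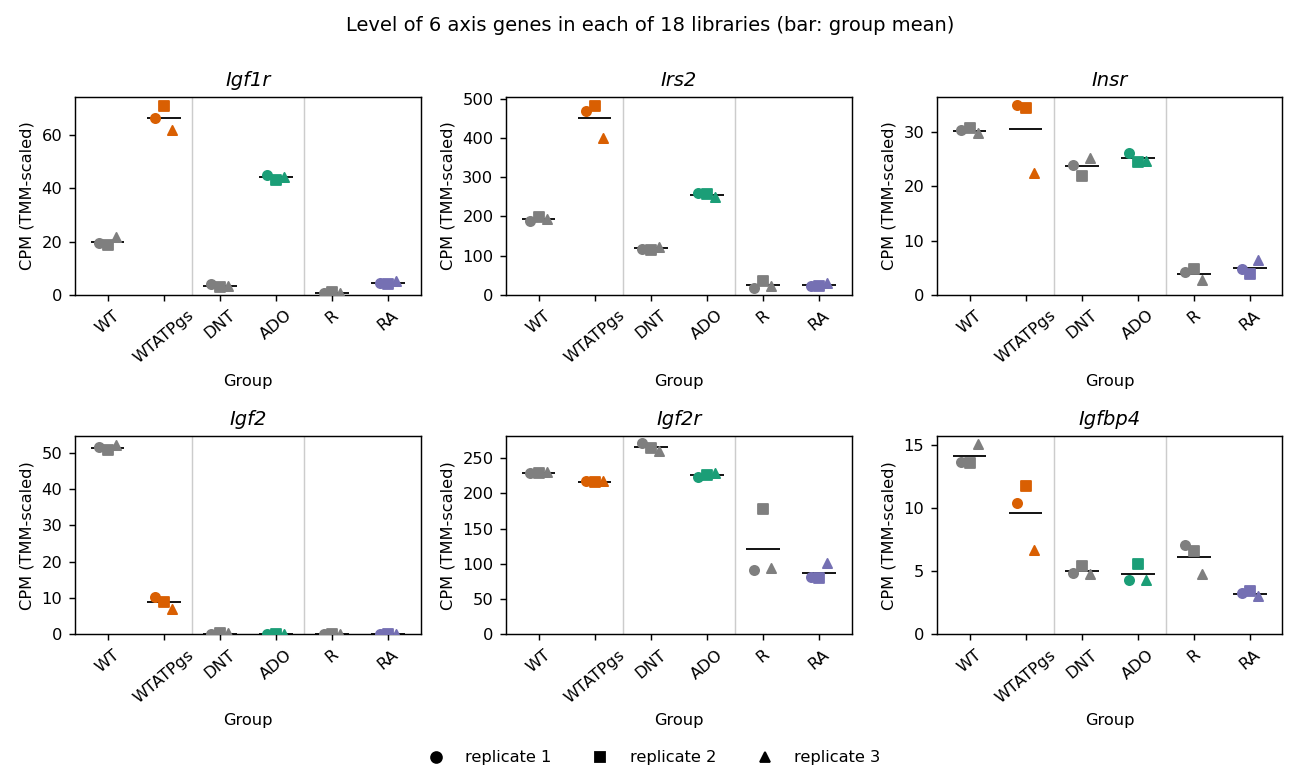
TMM-scaled CPM (y axis, linear, from 0) of 6 genes in the 18 libraries, by group (x axis). Points are single libraries with a shape for each replicate number, black bars are group means, and grey vertical lines separate the 3 tables. Igf1r stands higher in all treated groups, Irs2 in WTATPgs and ADO, and Igf2 is seen in the first table, falling from 51.5 to 8.79 CPM.

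Irs2 (chromosome 8, 10984681 to 11008458, minus strand), the adaptor that links both receptors to PI3 kinase, was higher with ATPgs and with adenosine, while its groups overlapped under the inhibitor. It was 189, 199 and 194 CPM in WT and 467, 482 and 400 CPM in WTATPgs. It was 118, 116 and 123 CPM in DNT and 260, 257 and 250 CPM in ADO. The treated and control libraries did not overlap in either table. The log2 fold changes were 1.22 ± 0.07 and 1.10 ± 0.03, which are 2.32-fold and 2.15-fold. In the third table Irs2 was 19.2, 34.8 and 23.0 CPM in R and 22.8, 23.7 and 30.5 CPM in RA, with overlapping groups and a log2 fold change of 0.00 ± 0.24. The adenosine effect on Irs2 was lower by 1.12 ± 0.25 with the inhibitor than without it, as a description. The ATPgs and adenosine effects differed by 0.12 ± 0.07.

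Irs1 (chromosome 1, 82233101 to 82291416, minus strand), the other adaptor, was hardly detected. Its summed count over 3 libraries was 3 in WT, 4 in WTATPgs, 6 in DNT, 6 in ADO, 1 in R and 0 in RA, so no effect was fitted in any table. An overlapping gene on the opposite strand, Gm9747, shares 30.9% of its exon length and had 0 counts in all 18 libraries. Per kilobase of exon, Irs2 was the most abundant member in WT at 30.6 ± 0.788 CPM, followed by Igf2r at 24.6 ± 0.110, Igf2 at 8.99 ± 0.117, Igfbp4 at 3.20 ± 0.197, Insr at 2.20 ± 0.0331 and Igf1r at 1.20 ± 0.0904 CPM. In ADO, Igf1r reached 2.63 ± 0.0585 CPM per kilobase, above Insr at 1.83 ± 0.0671.

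Insr (chromosome 8, 3122061 to 3279617, minus strand), the receptor closest to Igf1r in structure, stayed near its control level in each table. It was 30.3, 30.6 and 29.7 CPM in WT and 34.9, 34.4 and 22.4 CPM in WTATPgs, with 2 treated libraries above and 1 below all controls. Its log2 fold change was 0.01 ± 0.17 over all libraries and 0.19 ± 0.06 without WTATPgs 3. It was 23.9, 21.9 and 25.3 CPM in DNT and 26.2, 24.5 and 24.6 CPM in ADO, a log2 fold change of 0.08 ± 0.07 with overlapping groups. In the third table it was lower throughout, at 4.26, 4.82 and 2.72 CPM in R and 4.77, 3.93 and 6.50 CPM in RA, again overlapping, with a log2 fold change of 0.35 ± 0.27.

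Igf2r (chromosome 17, 12682406 to 12769664, minus strand) was slightly lower with either ligand. It was 229, 229 and 231 CPM in WT and 217, 215 and 218 CPM in WTATPgs, a log2 fold change of -0.08 ± 0.03 that was -0.032 with scaling by library size alone. It was 272, 264 and 259 CPM in DNT and 222, 226 and 229 CPM in ADO, a log2 fold change of -0.23 ± 0.02. Neither pair of groups overlapped, although the size of both differences is small beside those of Igf1r and Irs2. In the third table the values were 91.9, 177 and 94.8 CPM in R and 81.5, 80.1 and 101 CPM in RA. There the groups overlapped, and the log2 fold change of -0.47 ± 0.26 became -0.11 ± 0.15 without R 2. Airn, a non-coding RNA made from within the Igf2r locus in the antisense direction, shares no exon base with Igf2r in the annotation. It fell with ATPgs (log2 fold change -0.84 ± 0.13, adjusted p = 0.00134) and with adenosine (-0.71 ± 0.12, adjusted p = 3.59e-06). Whether the counting used strand is not given in the sources used here, so reads from unspliced Igf2r RNA and from Airn cannot be told apart.

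**Figure D2:**
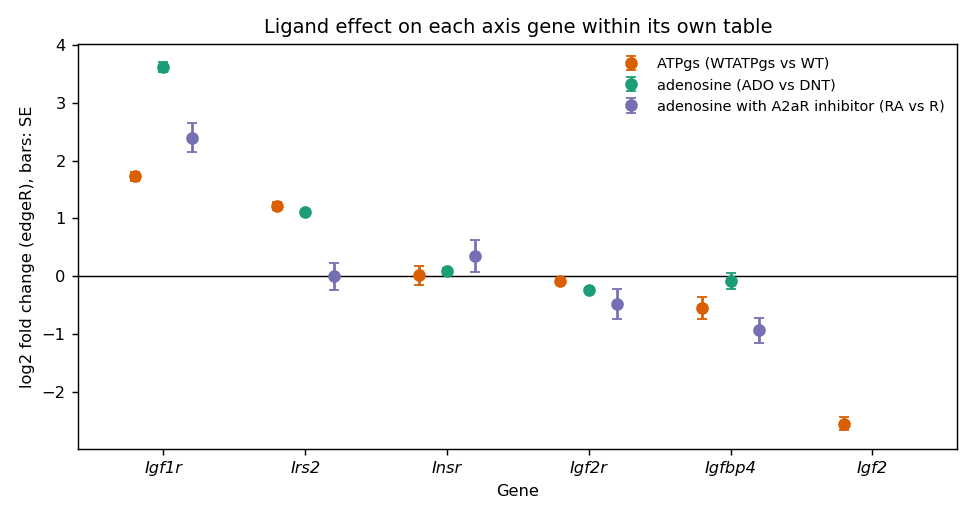
Log2 fold change (y axis) of 6 genes (x axis) for ATPgs, adenosine and adenosine with A2aR inhibitor, each fitted within its own table. Points are edgeR estimates and bars are 1 SE. Igf1r is above 0 in all 3, Irs2 in the first 2, and Igf2 has a fitted value of -2.55 for ATPgs alone, since it was too low in the other tables to be fitted.

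Igf2 (chromosome 7, 142650766 to 142666816, minus strand), the ligand, was lower with ATPgs. It was 51.6, 50.7 and 52.1 CPM in WT and 10.4, 8.89 and 7.11 CPM in WTATPgs, with no overlap. The log2 fold change was -2.55 ± 0.12, a level 5.85-fold lower, and was ranked 13 among the falls of the 15124 genes fitted. In the other tables the summed counts over 3 libraries were 17 in DNT, 6 in ADO, 6 in R and 1 in RA, so that no ligand effect on Igf2 was fitted there.

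The low Igf2 counts of the second table and the third coincide with a difference in the gene list. Those tables list 959 genes that the first does not, among them Gm49394, a gene on the same strand that covers 3596 of the 5723 exon bases of Igf2 (62.8%). Gm49394 had 0 counts in all 12 libraries that list it. The other 2127 exon bases of Igf2 (37.2%) are not shared with it. Of 6 genes at 5 CPM or more in WT with at least 50% of their exon length under such an added same-strand gene, 4 (66.7%) were at least 10-fold lower in DNT than in WT, against 122 of 10052 other genes (1.21%). In R the figures were 5 of 6 (83.3%) and 344 of 10052 (3.42%). Without Igf2, which prompted the count, they were 3 of 5 in DNT and 4 of 5 in R, given as a description. Besides Igf2, the 6 genes were 4930431P03Rik, Ece2, Gm49342, Ipo4 and Ndor1, found after the values had been seen. Since most of its exon length is shared with a gene that only the second table and the third list, the Igf2 level is not compared between the first table and the others. Its near-0 counts in DNT, ADO, R and RA cannot be read as absence of the transcript.

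The first table also held RNA of mast cell and basophil genes, beside which the Igf2 values are given. The summed level of 15 such genes, a list made after the values had been seen, was 763, 749 and 747 CPM in WT and 1410, 1415 and 336 CPM in WTATPgs, with 1 of 15 at 0 in each library. It was 79.3 to 79.7 CPM in DNT, 139 to 141 in ADO, 70.4 to 83.6 in R and 45 to 49.9 in RA. Kit, a receptor gene on this list that other cells also express, made up most of the sum in the second table, at 69.2 to 70.7 CPM in DNT and 127 to 130 CPM in ADO. The other 14 genes summed to 9.005 to 10.2 CPM in DNT and 10.8 to 11.5 in ADO. In the first table they summed to 666 to 680 CPM in WT and 251 to 1301 CPM in WTATPgs. In the third they summed to 41.9 to 67.4 CPM in R and 26.9 to 30.1 in RA. There every RA library lay below every R library. In WTATPgs 1 and in WTATPgs 2, 13 of the 15 genes were above all WT libraries, and in WTATPgs 3, 13 were below them. The same count was not made over all genes, and the 15 were listed with the values known, so nothing is read from it. Summed levels of 15 myeloid markers were 43.9 to 48.4 CPM in WT and 202, 209 and 48.6 CPM in WTATPgs, with 0 or 1 of them at 0 counts in each library. Sums of 9 B cell markers were 33.4 to 36.7 CPM in WT and 53.3 to 58.7 in WTATPgs, with 0 and 0 to 3 of them at 0 counts. Sums of 11 stromal and endothelial markers were 127 to 137 and 164 to 206 CPM, with 1 to 3 and 1 of them at 0 counts. Of these 11, Col3a1, Pdgfra, Dcn, Cdh5 and Kdr were too low to be tested for any of the 3 ligand effects. In the other 12 libraries the myeloid, B cell and stromal sums were 12.1 to 50.2, 9.72 to 48.0 and 71.3 to 155 CPM. There 3 to 7 myeloid, 1 to 5 B cell and 1 to 5 stromal markers were at 0 counts, so these sums rest on part of each list. The Cd4, Cd8a and Cd8b1 sum was lower in all 3 WTATPgs libraries than in WT. By edgeR Cd4 (log2 fold change -2.13 ± 0.26, adjusted p = 0.000454) and Cd8a (-1.05 ± 0.26, adjusted p = 0.0179) fell with ATPgs. Cd8b1 was not called (-0.25 ± 0.22, adjusted p = 0.412). With adenosine, Cd4 (-1.11 ± 0.34, adjusted p = 0.00617) and Cd8a (-0.48 ± 0.07, adjusted p = 1.63e-07) also fell by edgeR, while Cd8b1 rose (0.60 ± 0.25, adjusted p = 0.0394). The part of these marker levels in the Igf2 result was not tested. Igf2 was lower than in WT in all 3 WTATPgs libraries, and its log2 fold change was -2.42 ± 0.07 without WTATPgs 3. Of 10058 genes at 5 CPM or more in WT, 25 were at least 100-fold lower in DNT. These included Igfbp5 and, from the mast cell and basophil list, Cpa3, Fcer1a, Ms4a2, Gata2 and Cma1. They also included the myeloid markers S100a8 and S100a9, and Csf2rb, Csf2rb2, Chil3, Ngp and Prg2, which are on neither list. Igf2, Ece2 and Gm49342 were also among the 25, but the levels of these overlapped genes are not compared between the tables. Which cells of the first table made the Igf2 RNA was not tested, and in these bulk samples fewer cells of a type and less RNA per cell cannot be told apart.

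**Figure D3:**
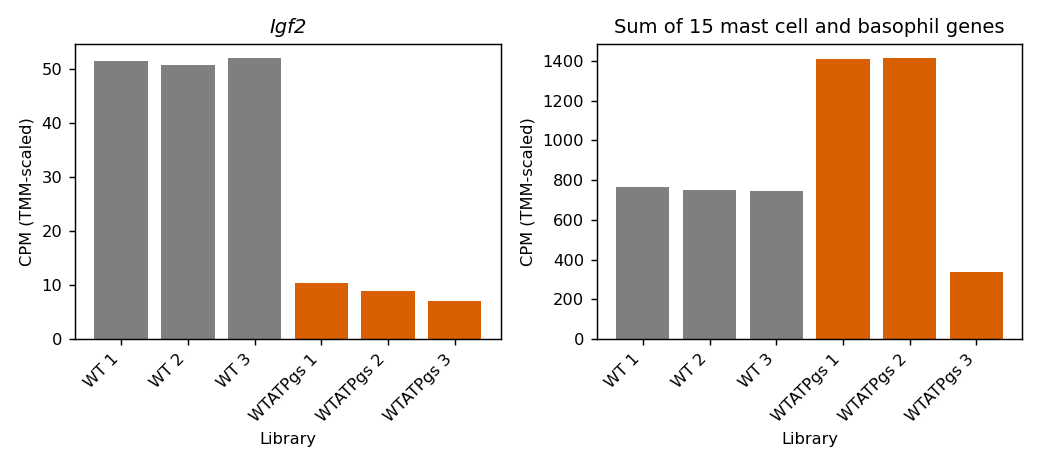
Bars give TMM-scaled CPM (y axes, from 0) in the 6 libraries of the first table (x axes), for Igf2 on the left and for the sum of 15 mast cell and basophil genes on the right. Igf2 is between 7.11 and 10.4 CPM in the treated libraries, while the marker sum is near 1410 CPM in 2 of them and at 336 CPM in the other.

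Igfbp4 (chromosome 11, 99041244 to 99054392, plus strand), the binding protein, was lower with ATPgs and with adenosine under the inhibitor. It was 13.6, 13.6 and 15.1 CPM in WT and 10.4, 11.7 and 6.71 CPM in WTATPgs, with no overlap. The log2 fold change was -0.56 ± 0.19, and it was -0.36 ± 0.10 without WTATPgs 3, the library with the low mast cell sum. It was 4.90, 5.42 and 4.77 CPM in DNT and 4.34, 5.61 and 4.31 CPM in ADO, which overlapped, with a log2 fold change of -0.08 ± 0.14. In the third table it was 7.07, 6.61 and 4.78 CPM in R and 3.28, 3.41 and 3.01 CPM in RA, with no overlap and a log2 fold change of -0.93 ± 0.21. The adenosine effect on Igfbp4 was lower by 0.86 ± 0.22 with the inhibitor than without it, as a description.

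Counted over the members, the treated libraries all lay above the controls for 2 of 6 fitted genes with ATPgs, all lay below for 3, and overlapped for 1. Over all genes of that table, 24.4% lay wholly above and 26.9% wholly below. With adenosine, 2 of 5 fitted members lay above, 1 below and 2 overlapped, against 28.3% and 27.5% of all genes. With adenosine under the inhibitor, 1 of 5 lay above, 1 below and 3 overlapped, against 10.1% and 10.7%. Nothing is read from these shares, since the members were picked on the same contrasts. Across the 18 libraries, with each table centred on its own mean, the log2 levels of Igf1r and Irs2 had a Pearson r of 0.81, which is a description of libraries that share tables and ligands.

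By the same measure the genes most like Igf1r over 18 libraries, out of 9965 candidates, were Abcb4 (r = 0.98), Irgm2 (0.96), Cenpa (0.96), Perp (0.96) and Ttc39c (0.95). Abcb4 encodes a phospholipid transporter, and its log2 fold changes were 1.21 with ATPgs, 1.76 with adenosine and 1.31 with adenosine under the inhibitor, so it followed the order of the Igf1r effects at smaller size. The genes most like Igf2 were Cd6 (r = 0.95), Smyd5 (0.93), Top1mt (0.93), Ubxn11 (0.92) and Rgs16 (0.92). Cd6, a surface receptor of T cells, had a log2 fold change of -1.19 with ATPgs, -0.37 with adenosine and -0.11 under the inhibitor. Since Igf2 was near 0 in 12 libraries, its likenesses rest on the 6 of the first table. All were taken from the same libraries that chose the members.

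The rest of the axis was described through 5 lists of 166 other genes, tested with edgeR's quasi-likelihood test and called at an adjusted p under 0.05 over all genes tested. With ATPgs, 53 of 129 tested list genes rose and 18 fell, where 17.7% of all genes rose and 19.4% fell. With adenosine, 52 of 125 rose and 32 fell, where 25.5% and 24.6% of all genes did. With adenosine under the inhibitor, 4 of 121 rose and none fell, where 0.287% of all genes rose and 0.855% fell. At an unadjusted p under 0.05, 8 list genes were lower in that comparison by edgeR. DESeq2 called 4 list genes lower there and limma-voom 0. The median log2 fold change over all genes was 0.00 with ATPgs, 0.00 with adenosine and -0.04 under the inhibitor.

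FOXO factors and genes that FOXO factors can regulate rose more often than they fell with both ligands. With ATPgs, 21 of 28 tested rose and 2 fell, where 17.7% and 19.4% of all genes did. The list median log2 fold change was 0.68. With adenosine, 21 of 28 rose and 3 fell, where 25.5% and 24.6% of all genes did. The median was 0.52, and 18 genes rose with both ligands. Txnip, which restrains glucose uptake and is lowered by growth signals, had a log2 fold change of 1.87 ± 0.04 with ATPgs and 1.27 ± 0.03 with adenosine, its mean rising from 77.2 to 282 CPM and from 64.2 to 155 CPM. Il7r, the receptor chain for interleukin 7, rose by 1.18 ± 0.04 with ATPgs, and the cyclin gene Ccnd2 fell by 0.72 ± 0.03 with ATPgs and by 0.67 ± 0.02 with adenosine. Ctla4, an inhibitory receptor, rose by 1.11 ± 0.05 with ATPgs. Adjusted p-values of the values named here were between 1.63e-34 and 1.52e-06. The list also holds genes that other factors control, and it was made with earlier results of these data known.

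Under the inhibitor 2 of the 28 FOXO list genes rose with adenosine, where 0.287% of all genes rose. Il7r went from 20.03 ± 1.28 CPM in R to 49.7 ± 1.42 CPM in RA, a log2 fold change of 1.31 ± 0.15 (adjusted p = 0.00255). Ccr7, a chemokine receptor of lymph node homing, went from 23.1 ± 1.49 to 42.5 ± 6.00 CPM, a log2 fold change of 0.88 ± 0.17 (adjusted p = 0.0386).

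**Figure D4:**
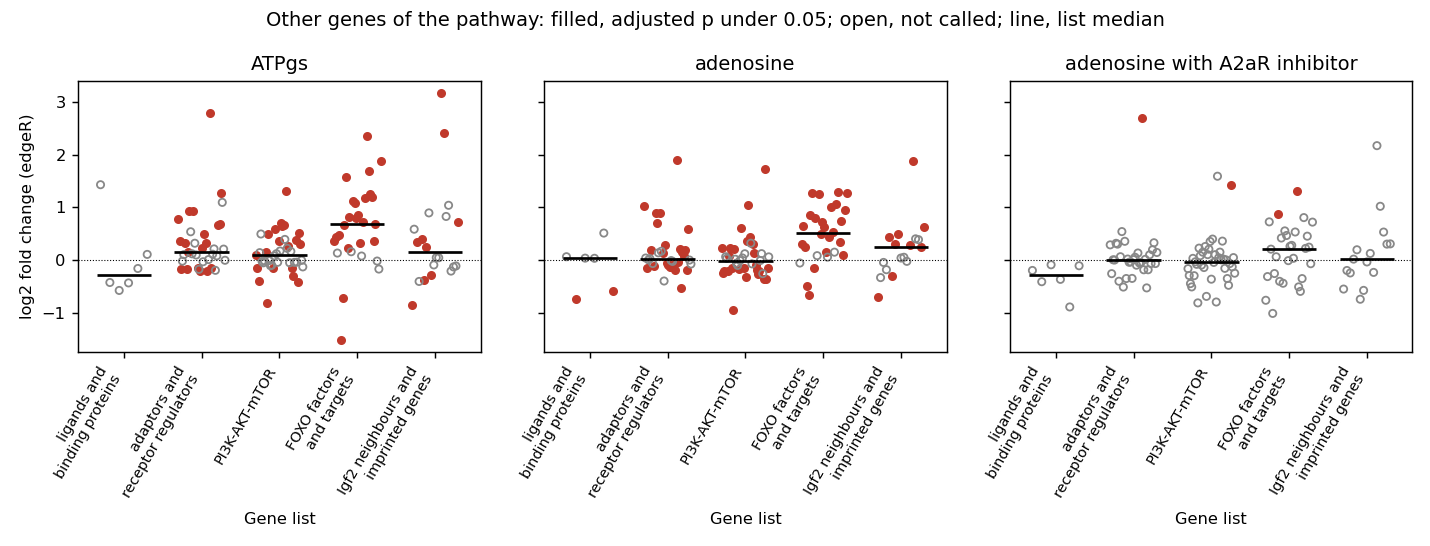
Log2 fold change (y axis) of each tested gene of 5 lists (x axis) for the 3 ligand effects, each in a panel. Filled points passed an adjusted p of 0.05, open points did not, and black lines are list medians. The FOXO list has its median at 0.68 with ATPgs and 0.52 with adenosine, while most points under the inhibitor are open.

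Among adaptors and regulators of the receptors, 13 of 35 tested rose and 6 fell with ATPgs, and 13 of 34 rose and 10 fell with adenosine. Of all genes, 17.7% rose and 19.4% fell with ATPgs, and 25.5% rose and 24.6% fell with adenosine. The list medians were 0.16 and 0.01. Ptprf, a receptor phosphatase known to act on the insulin receptor, rose in all 3 tables. It went from 3.15 ± 0.142 to 21.8 ± 1.67 CPM with ATPgs, from 8.79 ± 0.35 to 32.7 ± 2.74 CPM with adenosine and from 0.539 ± 0.414 to 3.70 ± 0.523 CPM under the inhibitor. Its log2 fold changes were 2.79 ± 0.10 (adjusted p = 9.34e-07), 1.90 ± 0.08 (adjusted p = 1.94e-26) and 2.69 ± 0.42 (adjusted p = 0.0139). Socs3, a feedback inhibitor that can bind these receptors, rose by 1.28 ± 0.09 with ATPgs and by 0.59 ± 0.06 with adenosine. Arrb1, a beta-arrestin that takes part in IGF1R turnover, rose by 1.02 ± 0.06 with adenosine.

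Of the PI3K-AKT-mTOR list, 13 of 40 rose and 7 fell with ATPgs and 11 rose and 15 fell with adenosine. The shares of all genes were 17.7% and 19.4% with ATPgs and 25.5% and 24.6% with adenosine. The list medians were 0.09 and -0.01. Pik3r1, the regulatory subunit that binds IRS proteins, rose from 86.6 ± 3.81 to 137 ± 1.85 CPM with ATPgs and from 117 ± 0.755 to 158 ± 1.14 CPM with adenosine. Tbc1d4, an AKT substrate that controls glucose transporter traffic, rose by 1.72 ± 0.13 on the log2 scale with adenosine (adjusted p = 3.91e-16). It also rose under the inhibitor, from 2.01 ± 0.110 to 5.40 ± 0.490 CPM, a log2 fold change of 1.42 ± 0.20 (adjusted p = 0.00867). Inpp4b, a phosphatase of PI3K lipids, fell by 0.95 ± 0.03 with adenosine, and Akt2 fell by 0.39 ± 0.04 with ATPgs.

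The 4 list calls under the inhibitor rest on few libraries. Il7r kept its call without any single library, whereas Ptprf, Tbc1d4 and Ccr7 each lost theirs without R 1, RA 1, RA 2 or RA 3, with adjusted p up to 0.0932, 0.0875 and 0.292. Ccr7 also lost its call with library size alone and with a replicate block. The count of list calls was 1 without each of these libraries and 7 without R 2. Without R 3 it was 27, of which 9 were higher and 18 lower. Calls over all genes were then 725 higher and 994 lower of 13181, against 37 and 110 of 12873 in the main fit.

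Of 20 further ligands, binding proteins and related factors, 12 had fewer than 30 counts in every group, among them Igf1, Ins1, Ins2, Igfbp1, Igfbp2 and Igfbp3. Igf1 summed to 10 counts in WT and 21 in WTATPgs and to at most 8 in any other group. Of the 6 tested with ATPgs, edgeR, DESeq2 and limma-voom each called 0, while 2, the RNA-binding protein genes Igf2bp2 and Igf2bp3, had an unadjusted p under 0.05 by edgeR (log2 fold changes -0.43 ± 0.17 and -0.58 ± 0.22). With adenosine 2 of 6 fell: Stc2, a secreted inhibitor of the protease that cleaves IGFBP4, by 0.58 ± 0.05, and Igf2bp3 by 0.74 ± 0.15. Igfbp5 was 11.99 ± 1.19 CPM in WT and 8.90 ± 6.46 CPM in WTATPgs, with 0 counts in DNT and ADO. The Igf2 neighbours and other imprinted genes were tested where expressed. With ATPgs 6 of 20 rose and 3 fell, where 17.7% and 19.4% of all genes did. With adenosine 7 of 17 rose and 2 fell, where 25.5% and 24.6% of all genes did. H19, which shares its enhancers with Igf2, had at most 4 counts in any group. Peg10, a paternally expressed gene derived from a retroelement, rose by 3.16 ± 0.31 with ATPgs (0.905 ± 0.211 to 8.16 ± 2.60 CPM, adjusted p = 0.000161) and by 1.87 ± 0.20 with adenosine (1.32 ± 0.299 to 4.83 ± 1.04 CPM, adjusted p = 2.77e-11). Plagl1, a zinc finger factor known to activate Igf2, rose by 2.40 ± 0.35 with ATPgs (adjusted p = 0.00241), in the libraries where Igf2 was lower.

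The effects were then compared between tables. The adenosine effect with the inhibitor minus that without it was higher for 1 and lower for 7 of 126 tested list genes, where 0.912% of all genes were higher and 3.14% lower. Lsp1, a neighbour of Igf2 that encodes a leukocyte actin-binding protein, had the smallest p (difference -1.06 ± 0.13, adjusted p = 0.000507). Of the FOXO list 5 of 28 were lower, among them Ccng2 (-0.81 ± 0.16, adjusted p = 0.0141), Ctla4 (-0.71 ± 0.16, adjusted p = 0.0252) and Tcf7 (-1.04 ± 0.24, adjusted p = 0.0307). The count of calls over all 5 lists was 8 in the main fit. Leaving out single libraries moved it between 1 without DNT 1 or ADO 2 and 37 without R 3. The 37 were 10 higher and 27 lower, beside 1633 higher and 1417 lower of 15390 over all genes. The list count was 14 without R 2, and 2 or 3 without DNT 2, DNT 3, ADO 1, ADO 3, RA 1 or RA 2. Lsp1 kept its call under every alternative run, whereas Ctla4 and Tcf7 each lost theirs without any of 8 single libraries, with library size alone and with a replicate block (adjusted p up to 0.216 and 0.165). Ccng2 lost its call without DNT 1 or ADO 2 and with library size alone (adjusted p up to 0.176).

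The ATPgs effect minus the adenosine effect was higher for 28 and lower for 12 of 131 tested list genes, where 8.13% of all genes were higher and 9.12% lower. Txnip rose further with ATPgs (difference 0.61 ± 0.06, adjusted p = 2.17e-06), as did Socs2 (0.87 ± 0.09, adjusted p = 6.26e-06), a suppressor of cytokine signalling. Socs2 rose with ATPgs and fell with adenosine. Trib3, a pseudokinase that binds AKT, differed by 0.67 ± 0.07 (adjusted p = 1.4e-05). The count of list calls was 70 without WTATPgs 3. Calls over all genes were then 2309 higher and 3058 lower of 16248, against 1284 and 1440 of 15788 in the main fit. Each of these differences compares cells of separate tables, whose untreated groups differ in level, as shown for Igf1r.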

How the data were processed

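RNA-seq counts per gene were deposited in 3 tables of 6 libraries. The authors aligned reads with HISAT2 2.1.0 to GRCm38, per the submitters' processing notes, and no source used here names the counting tool, annotation release or strand setting. Between 99.7 and 99.8% of gene identifiers matched GENCODE M21, which supplied symbols, positions and exon lengths, and the first table lists 52550 genes and the others 53465. The members and lists were chosen with earlier results of these data known, and the mast cell list and the GC box after values or windows had been seen.

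Each ligand effect was fitted within its own table, and each difference of effects in a fit of 12 libraries, with edgeR 4.0.16 (R 4.3.3): TMM factors, filterByExpr and the two-sided quasi-likelihood F test with robust dispersions. P-values were adjusted by Benjamini-Hochberg over all tested genes, with a threshold of 0.05. The SE is the absolute log2 fold change divided by the root of F. DESeq2 1.42.0 and limma-voom 3.58.1 were alternatives. Alternatives also covered scaling, the filter on low counts, a fit of all 18 libraries, a replicate block and leaving out each library. Correlations used log2(CPM + 0.5), centred per table, over genes of at least 5 CPM in a group. Genes named were the members, up to 4 tested genes with the smallest p per list and ligand effect, up to 5 per difference of effects, and the 5 most like Igf1r and Igf2. One gene that this rule names is not reported here. Sums of markers of other cell types were taken as CPM. Promoter windows came from RefSeq (GRCm38.p6). Figures were drawn with matplotlib 3.10.9.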

Additional observations from a re-analysis of the deposited data

Results flagged for a closer look

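Some of the named pathway genes had ligand effects that differed between tables, with an adjusted p under 0.05 for the difference itself in edgeR's quasi-likelihood test. For adenosine with minus without the A2aR inhibitor, the difference on the log2 scale was negative for Lsp1 (-1.06), Ccng2 (-0.81), Ctla4 (-0.71), Tcf7 (-1.04) and Bbc3 (-0.73), and positive for Rictor (0.53). The Rictor call was lost under 11 of 20 alternatives, 8 of them single libraries left out (adjusted p up to 0.186). Bbc3 encodes a pro-apoptotic BCL2 family member, and Rictor a subunit of mTOR complex 2. For ATPgs minus adenosine, the difference was positive for Txnip (0.61), Cdkn1a (0.39), Socs2 (0.87), Trib3 (0.67), Mdm2 (0.33), Ptprf (0.90), Socs3 (0.69), Inpp5d (0.29), Pik3cg (0.35), Rictor (0.35), Arrb2 (0.32), Pik3r1 (0.24), Plagl1 (2.003), Bbc3 (0.42), Pik3cd (0.50), Peg10 (1.29) and Il7r (0.18). It was negative for Tbc1d4 (-1.21), Tcf7 (-1.11) and Akt2 (-0.18). Tcf7, a transcription factor of T cells, had a log2 fold change of 0.95 with adenosine and -0.17, not called, with ATPgs. Plagl1 and Peg10, both imprinted genes, rose further with ATPgs, and the treated Plagl1 level of 11.3 ± 4.61 CPM (SD, n = 3) varied between the WTATPgs libraries. Ligand, table and control level differ together in these comparisons and cannot be told apart.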

How the results depend on the processing

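The fold changes of Igf1r and Igf2 moved by less than the spread between libraries under each of 14 alternatives: Igf1r stayed between 1.67 and 1.78 with ATPgs, 3.54 and 3.72 with adenosine, and 2.28 and 2.55 under the inhibitor, and Igf2 between -2.67 and -2.42. Counts of pathway calls moved more. A fit of all 18 libraries gave 35 calls with adenosine (84 in its own table), 29 with adenosine under the inhibitor (4), and 8 for ATPgs minus adenosine (40). Calls over all genes moved with them. With adenosine they went from 3707 higher and 3574 lower of 14512 to 1439 and 870 of 16073. Under the inhibitor they went from 37 and 110 of 12873 to 885 and 893 of 16073. For ATPgs minus adenosine they went from 1284 and 1440 of 15788 to 157 and 145 of 16073. Under the inhibitor, no filter on low counts and DESeq2 each gave 12 calls. Over all genes they gave 156 higher and 329 lower of 23758, and 181 and 352 of 12873. For adenosine with minus without the inhibitor, library size alone gave 1 call, DESeq2 19 and the replicate block 3, against 8. Over all 14918 genes these gave 72 higher and 168 lower, 541 and 847, and 70 and 310, against 136 and 469. Leaving out single libraries gave 53 to 100 calls with ATPgs (71), 78 to 83 with adenosine, 1 to 27 under the inhibitor, 1 to 37 for the inhibitor difference and 31 to 70 for ATPgs minus adenosine. The 100 came without WTATPgs 3, where calls over all genes were 4186 higher and 4195 lower of 15568, against 2678 and 2934 of 15124. Whether replicate numbers pair the samples is not stated. Deviations from the group means had correlations from -0.20 to 0.05 between same-numbered libraries, which cannot settle it with so few libraries. The closest control had the same number for ADO 1, ADO 2 and RA 1, and another number for the other treated libraries. The block gave 61, 83 and 4 calls for the 3 ligand effects, the last with Peg10 (adjusted p = 0.0253) in place of Ccr7. Igf2bp2, not called, changed sign with adenosine without DNT 2 (-0.062) or ADO 1 (-0.04), with a range of -0.062 to 0.187 over single libraries left out, and under the inhibitor without R 1, with a range of -0.413 to 0.21. Of 1203 values of single genes, these 3 included, 1097 stayed as they were in direction and call or within the spread, 39 became calls, 54 lost theirs, and 10 values of Igf2r and Irs2 moved by more than the spread between libraries, 8 of them Igf2r with ATPgs. Txnip, Cdkn1a and Mdm2 lost their ATPgs minus adenosine calls, and Pik3cd, Sh2b1 and Impact their adenosine calls, in the fit of all 18 libraries. Scaling by library size alone gave 3226 higher and 2331 lower genes with ATPgs against 2678 and 2934, and raised all log2 fold changes under the inhibitor by 0.13. The cause of these changes was not tested. Counts under 10 per group, as for Irs1, limit what can be said of a change.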
